A study of Mus musculus with 27 samples.

Results

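Mlx, its dimer partners MondoA (Mlxip) and ChREBP (Mlxipl), and 5 genes known as targets of these factors (Txnip, Arrdc4, Fgf21, Khk and Gpd1) were followed across tissues and ages of MlxKO mice. The genes were taken by symbol, 8 of the 36333 rows of the expression table, and all 8 were found. RNA-seq had been made from liver, omental adipose tissue and skeletal muscle of male mice aged 5 months (4 libraries per tissue) or 20 months (5 libraries per tissue), 27 libraries in all. The library names of the older group carry the tag X18 and the study's list of mice gives a younger age for them than the labels do, so their exact age is uncertain and 20 months is used as labelled. Every animal carried the genotype MlxKO from a cross of Mlx Flox/Flox mice with a B6.129 strain bearing the Gt(ROSA)26Sortm1(cre/ERT2)Tyj allele. In these mice the Cre recombinase is expressed body-wide from the Rosa26 locus and was activated by tamoxifen in corn oil, given i.p. at 75 mg/Kg on 5 days from weaning once an animal weighed at least 15 g. Knockout genotype, tamoxifen and strain were therefore shared by both ages. The older animals had also lived longer since the deletion, so age and time without Mlx cannot be told apart in the comparisons between ages. The loss of Mlx was not equal in all tissues. In the study's own qRT-PCR the Mlx transcript left was lowest in liver, higher in adipose tissue and highest in muscle, in both age groups. Wild-type libraries were not analysed here, so the comparisons below are between ages and between tissues within the knockout.

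Mlx is a small basic helix-loop-helix leucine zipper protein that has no transactivation domain of its own and binds DNA as a heterodimer. With MondoA or ChREBP it forms the glucose-sensing arm of the extended Myc network, in which glucose 6-phosphate and related sugar phosphates drive the larger partner onto carbohydrate response elements. ChREBP is best known in liver and fat, where it governs glycolytic and lipogenic genes, and MondoA is best known in skeletal muscle. Mlx also dimerises with Mnt, Mxd1 and Mxd4, repressors that otherwise pair with Max. Txnip and its relative Arrdc4 are alpha-arrestins that restrain glucose uptake, Fgf21 is a hormone made mainly by liver, Khk is the kinase that commits fructose to metabolism, and Gpd1 is the cytosolic glycerol 3-phosphate dehydrogenase.

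Promoter sequences of the genes are printed here because Mlx-containing dimers act by binding DNA. Sequence farther from the start was not searched. RefSeq windows on GRCm38.p6, reaching from 250 bases before to 50 bases after the annotated start, were present for 7 of the 8 genes. Both motifs searched for by letters are marked in capitals on the strand of the gene. The first is the E box CACGTG, which reads the same on both strands and lay in a window of Khk, Mlxipl, Fgf21, Arrdc4 and Mlx, against 7.15% of all 32851 windows. The second is a direct repeat, CACGNG, 5 bases and CACGNG on either strand, which lay in the Txnip window and in 0.0487% of all windows. This repeat was chosen after the Txnip sequence had been read. Its unit CACGNG includes the E box among its forms, but the Txnip window held no E box. The inverted-repeat ChoRE consensus lay in 0.0274% of all windows and in none of those of the 7 genes.
Txnip, chr3:96557850-96557910, plus strand: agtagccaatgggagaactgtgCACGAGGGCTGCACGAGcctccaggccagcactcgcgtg
Khk, chr5:30921466-30921515, plus strand: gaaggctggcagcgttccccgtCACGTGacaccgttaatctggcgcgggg
Mlxipl, chr5:135089770-135089819, plus strand: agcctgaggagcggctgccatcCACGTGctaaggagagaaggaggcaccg
Fgf21, chr7:45615513-45615562, minus strand: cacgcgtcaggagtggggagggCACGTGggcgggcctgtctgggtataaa
Arrdc4, chr7:68749404-68749453, minus strand: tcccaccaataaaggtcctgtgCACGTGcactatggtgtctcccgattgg
Mlx, chr11:101087228-101087277, plus strand: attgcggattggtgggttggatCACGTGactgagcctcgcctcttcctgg
The Txnip repeat lay 85 to 69 bases before the start of that gene. The E boxes began between 193 bases (Arrdc4) and 40 bases (Mlx) before the start used for their window. For Mlx and Khk that start lay downstream of the gene start given below, so their E boxes lay inside those gene coordinates. A match of letters is a description of the sequence, and binding was not measured in these libraries.

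The values below are the deposited scaled counts, in which each library had been divided by a factor of its own. Every one of them came out as a whole number of reads (within 0.02 reads), and the libraries held 14384695 to 25673919 reads on genes. The summed level of 6 hepatocyte markers was 42888 or more in liver and at most 321 elsewhere, that of 6 adipocyte markers 6264 or more in adipose tissue and at most 497 elsewhere, and that of 6 muscle fibre markers 128758 or more in muscle and at most 860 elsewhere, so the tissue labels fitted their markers. A 20-month liver library (X18L74) had the lowest hepatocyte sum, and a 5-month adipose library (X5F5001) had the lowest adipocyte sum. The names of the 5-month libraries end in the same 4 numbers in all 3 tissues (X5L5001, X5F5001 and X5S5001, for instance). By the study's list of mice these numbers are animals, so each 5-month animal gave all 3 tissues. For the older group that list gives every library a number of its own. Elsewhere in the list numbers also run by tissue, so it does not settle whether the 20-month tissues shared animals.

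Mlx itself (gene 21428, chromosome 11:101086707-101092207 on GRCm38.p6) was measured in every library, since the table gives one value per gene and the deletion covers only part of it. The loxP sites flank exons 3 to 6. On the annotated transcript of 8 exons these hold 397 of 1965 bases, or 20.2%, and the last exon alone holds 55.9%. Reads from the remaining 79.8% still count toward Mlx, so its value does not check the deletion. The Mlx exons also share 19.3% of their bases with Psmc3ip on the opposite strand, and whether reads were counted by strand is not given in the sources used here.

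**Figure D1:**
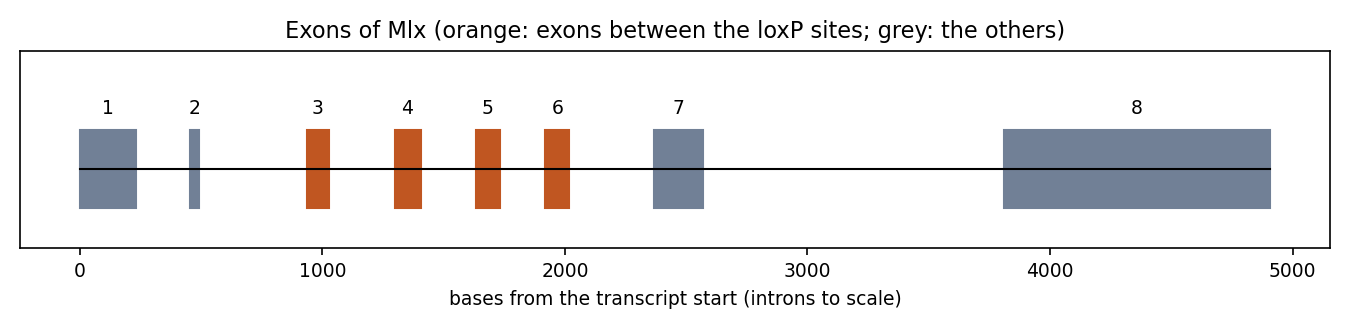
Exons of the 8-exon Mlx transcript, to scale along the gene in bases from the transcript start. The 4 exons between the loxP sites (orange, exons 3 to 6) hold 397 of the 1965 transcript bases and the long exon 8 lies outside them.

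Mlx levels were highest in liver and overlapped between the other tissues. In liver the 5-month values were 24.2, 32.4, 30.4 and 28.9 and the 20-month values 21.1, 26.1, 25.6, 27.8 and 18.8. In adipose tissue they were 8.20, 10.97, 8.53 and 8.79 at 5 months and 8.19, 10.6, 13.9, 10.5 and 9.98 at 20 months. In muscle they were 9.91, 9.11, 11.6 and 7.04 at 5 months and 11.3, 9.17, 10.6, 9.996 and 10.3 at 20 months. Every liver library lay above every library of the other tissues, and the ages overlapped in all 3 tissues. The liver mean exceeded the muscle mean 3.08-fold at 5 months and the adipose mean 2.24-fold at 20 months, while adipose tissue and muscle overlapped at both ages and differed by 0.03 or less on the log2 scale (SE 0.15 at 5 months, adjusted p = 0.874, and 0.13 at 20 months, adjusted p = 0.856). Mlx did not pass the age test in liver (log2 difference -0.28 ± 0.14 SE, adjusted p = 0.168), adipose tissue (0.19 ± 0.15, adjusted p = 0.349) or muscle (0.13 ± 0.14, adjusted p = 0.503). All age differences here are 20 months minus 5 months of log2(value + 1), tested by limma over all genes of a tissue and adjusted by Benjamini-Hochberg, and their errors are standard errors.

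**Figure D2:**
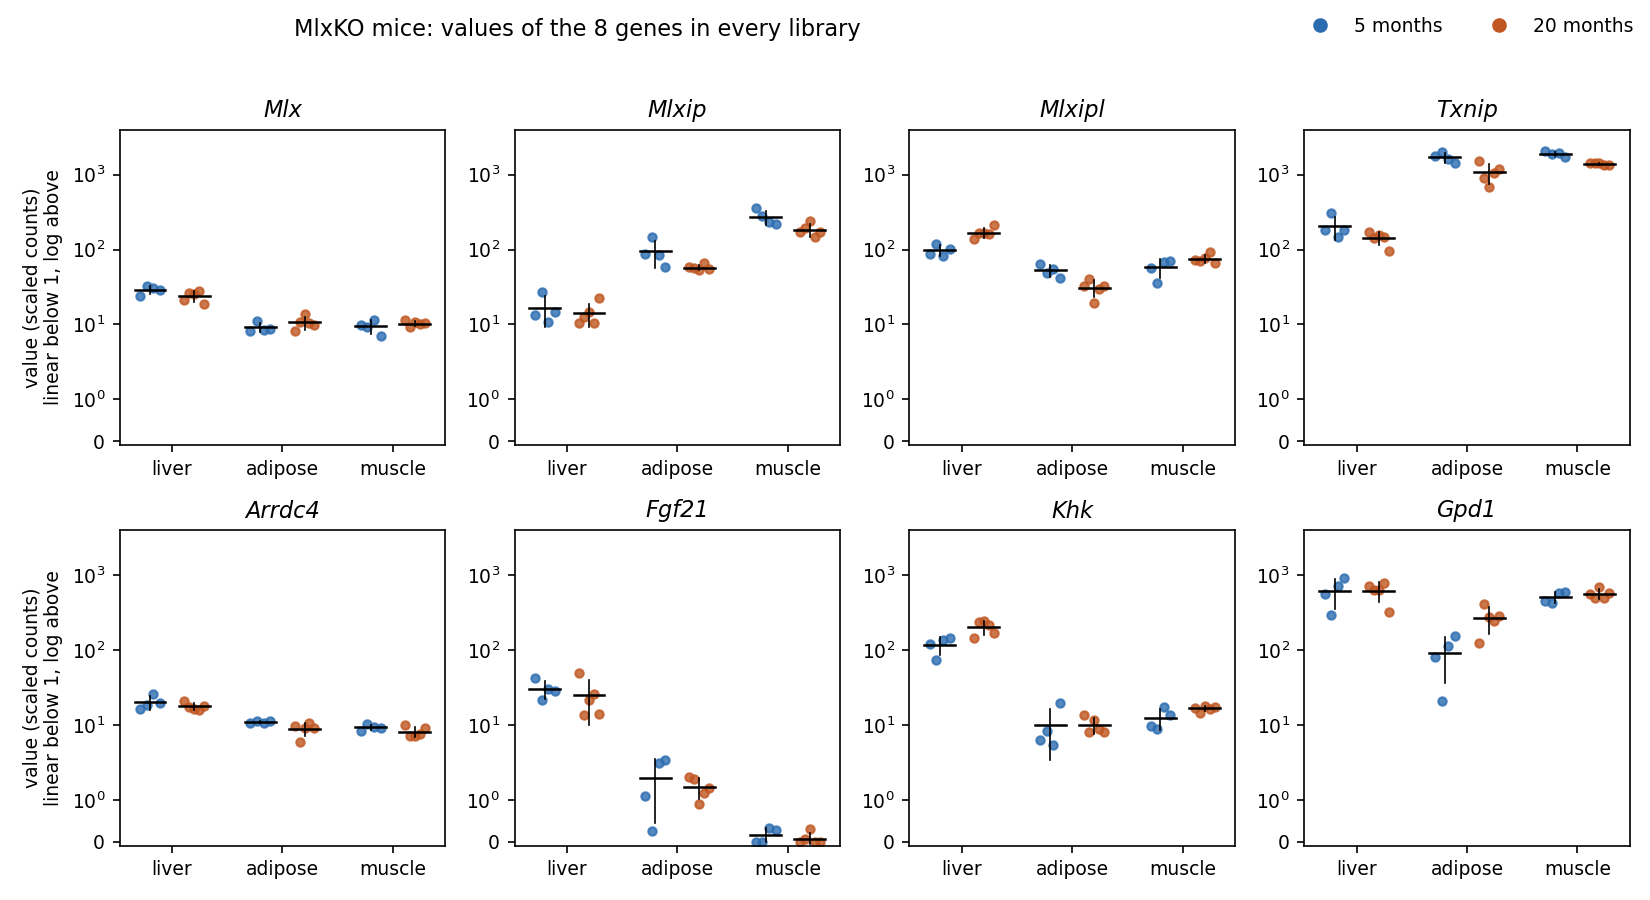
Values (scaled counts, linear below 1 and logarithmic above) of the 8 genes in every library, by tissue and age, with the mean (horizontal line) and SD (vertical line). Mlxip and Txnip are lowest in liver, and Mlxipl, Khk, Fgf21, Arrdc4 and Mlx are highest there.

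The partners of Mlx differed in where liver stood among the tissues, lowest for MondoA and highest for ChREBP. MondoA (Mlxip, gene 208104, chromosome 5:123394521-123457932) was highest in muscle, intermediate in adipose tissue and lowest in liver at both ages, with no overlap between neighbours in that order. Its 5-month values were 353, 277, 231 and 220 in muscle, 86.5, 147, 84.6 and 58.5 in adipose tissue, and 13.6, 27.3, 10.9 and 14.5 in liver. At 20 months they were 171, 193, 243, 149 and 170 in muscle, 58.1, 56.6, 52.7, 65.1 and 54.8 in adipose tissue, and 10.6, 12.5, 14.5, 10.6 and 22.3 in liver. At 5 months the muscle mean was thus 2.87 times the adipose mean, and the adipose mean 5.69 times the liver mean. ChREBP (Mlxipl, gene 58805, chromosome 5:135089890-135139768) was highest in liver, and at 20 months it was higher in muscle than in adipose tissue, as MondoA was. Its liver values were 86.3, 119, 83.2 and 102 at 5 months and 140, 165, 165, 163 and 210 at 20 months. The muscle values were 57.5, 35.9, 68.6 and 70.7 at 5 months and 73.0, 69.7, 75.9, 91.6 and 66.5 at 20 months. In adipose tissue they were 64.9, 49.1, 54.5 and 42.2 at 5 months and 32.5, 40.8, 19.6, 29.5 and 32.6 at 20 months. Liver stood above the other tissues at both ages without overlap, but its 5-month lead over adipose tissue (0.88, adjusted p = 0.000272) was gone once values were rescaled without the 20 most abundant genes (-0.09, adjusted p = 0.700). Muscle and adipose tissue overlapped at 5 months (log2 difference -0.11 ± 0.20 SE, adipose against muscle, adjusted p = 0.629) and were apart at 20 months (-1.28 ± 0.18, adjusted p = 3.44e-07).

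Per kilobase of annotated exon, the only scale on which these partners can be set beside each other, ChREBP was the more abundant transcript in liver and MondoA in muscle. In liver ChREBP reached 17.7 ± 3.005 (SD, n = 4) per kb at 5 months and 30.4 ± 4.58 (n = 5) at 20 months, against 1.99 ± 0.88 and 1.69 ± 0.58 for MondoA. In muscle MondoA reached 32.5 ± 7.25 and 22.2 ± 4.30 per kb, against 10.5 ± 2.88 and 13.6 ± 1.76 for ChREBP. In adipose tissue the pair was close, at 11.3 ± 4.52 and 6.90 ± 0.57 for MondoA and 9.51 ± 1.73 and 5.60 ± 1.38 for ChREBP. The log2 ratio of MondoA to ChREBP within a library averaged -3.23 (range -3.52 to -2.71) in 5-month liver and -4.22 (-4.54 to -3.82) in 20-month liver. It averaged 1.65 (1.05 to 2.36) in 5-month muscle and 0.70 (0.11 to 1.09) in 20-month muscle. In adipose tissue it averaged 0.19 (-0.17 to 0.997) at 5 months and 0.34 (-0.11 to 0.84) at 20 months, so that libraries with either partner ahead occurred at both ages.

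**Figure D3:**
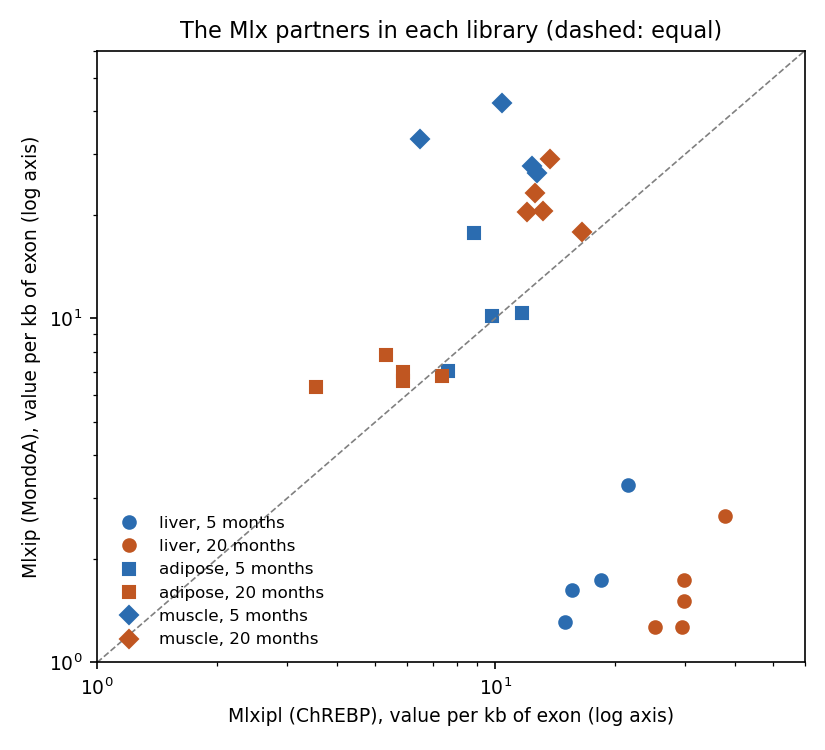
MondoA against ChREBP in each library, both as value per kb of exon on log axes, by tissue (shape) and age (colour), with the line of equality. Liver lies far below the line, muscle above it, and adipose tissue along it.

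With age the ChREBP transcript rose in liver and fell in adipose tissue. In liver the mean went from 97.8 to 168 and all 5 of the 20-month libraries lay above all 5-month libraries (log2 difference 0.78 ± 0.14 SE, adjusted p = 0.0089). This call was kept in every one of the 9 alternative analyses and of the 9 fits that left out a library. The 20-month liver library X18L74, which stood apart in its hepatocyte markers, had the highest value of all. In adipose tissue the mean went from 52.7 to 31.0, again without overlap (-0.77 ± 0.20, adjusted p = 0.0330). The adipose call was lost when 20-month library X18F39 or X18F40 or 5-month library X5F4299 or X5F5001 was left out, with log2 differences of -0.79 to -0.66 and adjusted p of 0.0573 to 0.0932. Muscle had a difference of 0.41 ± 0.18 that did not pass (adjusted p = 0.123). The age difference of ChREBP in liver exceeded that in adipose tissue by 1.55 ± 0.27 on the log2 scale (adjusted p = 0.000526), and that in adipose tissue lay below that in muscle by -1.17 ± 0.27 (adjusted p = 0.00552). Each of these differences passed in all 9 alternatives and in all 27 fits without a library. Liver and muscle were not separated (0.38 ± 0.27, adjusted p = 0.350).

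MondoA fell with age in muscle, from a mean of 270.4 to 185 (-0.54 ± 0.16, adjusted p = 0.0384), although the ages overlapped. The call was lost in 4 of the 9 alternative analyses, with adjusted p of 0.0787 with no filter on low values, 0.0736 after rescaling without the 20 most abundant genes, 0.0546 with no variance trend and 0.139 with all 27 libraries in 1 fit. It was also lost without muscle library X5S4299 or X5S5001 of the 5-month group or without X18S56, X18S57, X18S59 or X18S60 of the 20-month group, with log2 differences of -0.56 to -0.40 and adjusted p of 0.0636 to 0.0948. In adipose tissue the difference was -0.63 ± 0.22 and did not pass (adjusted p = 0.0672). It passed without library X5F5239 (-0.83, adjusted p = 0.0181). In liver it was -0.19 ± 0.27 (adjusted p = 0.634), and without library X5L5001 it was 0.07. For MondoA no difference between tissues in the age change passed the test.

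**Figure D4:**
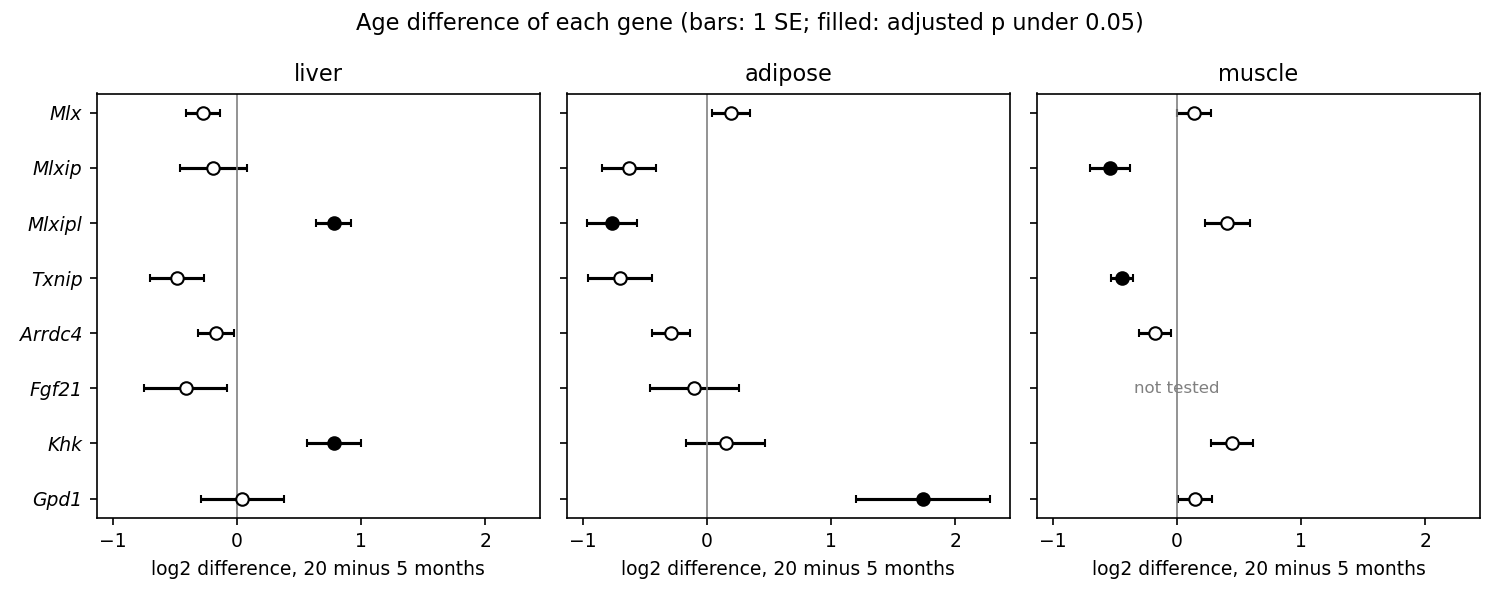
Age difference (log2, 20 minus 5 months) of each gene in each tissue with 1 SE, filled where the adjusted p is under 0.05. Of the ChREBP points, liver lies to the right of 0 and adipose tissue to the left, and Fgf21 was too low in muscle to be tested.

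Among the targets, Txnip (gene 56338, chromosome 3:96557957-96561857), which encodes the thioredoxin-interacting protein, was abundant in muscle and adipose tissue and much lower in liver. Its muscle values were 2039, 1890, 1925 and 1717 at 5 months and 1410, 1437, 1424, 1361 and 1325 at 20 months. The adipose values were 1758, 1991, 1612 and 1414 at 5 months and 1516, 909, 673, 1056 and 1204 at 20 months. In liver they were 180, 308, 146 and 183 at 5 months and 173, 143, 155, 146 and 95.5 at 20 months. The ages were apart in muscle and overlapped in adipose tissue and liver, and the spread among the 20-month muscle libraries was narrow (1391 ± 47.1 SD, n = 5). Muscle Txnip fell by 0.44 on the log2 scale (SE 0.09, adjusted p = 0.00871), and this held without each library in turn but not with all 27 libraries in 1 fit (adjusted p = 0.15). In adipose tissue the difference was -0.70 ± 0.26 (adjusted p = 0.0760) and passed without 20-month library X18F36 (-0.84, adjusted p = 0.0360). In liver it was -0.48 ± 0.22 (adjusted p = 0.133). The adipose mean was 8.30 times the liver mean at 5 months and 7.52 times at 20 months, without overlap. Part of the Txnip exons (19.4% of their bases) is shared with Gm15441 on the opposite strand.

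Arrdc4 (gene 66412, chromosome 7:68736994-68749238), the relative of Txnip that shares its glucose response, was highest in liver. Its liver values were 16.2, 18.7, 26.1 and 19.9 at 5 months and 20.96, 17.4, 16.5, 15.8 and 17.8 at 20 months. In adipose tissue they were 10.5, 11.2, 10.6 and 11.4 at 5 months and 9.70, 5.88, 9.16, 10.7 and 9.08 at 20 months. Muscle gave 8.30, 10.2, 9.47 and 9.20 at 5 months and 9.98, 7.11, 7.02, 7.497 and 9.12 at 20 months. Liver was above the other tissues at both ages, but over adipose tissue this rested on the scaling, since without the 20 most abundant genes the log2 difference was -0.11 at 5 months (adjusted p = 0.514) and 0.24 at 20 months (adjusted p = 0.123). The ages overlapped in all 3 tissues and no age difference passed (-0.17 ± 0.14 in liver, adjusted p = 0.413, -0.29 ± 0.15 in adipose tissue, adjusted p = 0.184, and -0.18 ± 0.13 in muscle, adjusted p = 0.340). Per kb, Txnip stood at 606 ± 42.6 in 5-month muscle where Arrdc4 stood at 2.30 ± 0.19, and at 65.4 ± 22.8 in 5-month liver where Arrdc4 stood at 5.01 ± 1.04.

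Other alpha-arrestins and the thioredoxin system, taken as a list of 7 genes, held 3 genes that passed the age test in some tissue. Of all genes tested for age, 19.8% passed in liver, 19.1% in adipose tissue and 19.3% in muscle, and these shares are the background for the counts of every list. In liver 3 of 7 rose and none fell, with a list median of 0.34 beside 0.00 over all genes tested. These were Arrdc1 (0.64 ± 0.19, adjusted p = 0.0409), Arrdc2 (0.79 ± 0.19, adjusted p = 0.0187) and Arrdc3 (from 51.0 to 122, 1.23 ± 0.23, adjusted p = 0.0106), alpha-arrestins that act as adaptors for ubiquitin ligases. In muscle 2 of 7 fell (19.3% of all genes passed), namely Arrdc2 (from 134 to 28.8, -2.03 ± 0.30, adjusted p = 0.00270) and Arrdc3 (from 209 to 52.8, -1.76 ± 0.33, adjusted p = 0.0064). In adipose tissue 1 of 7 fell (Arrdc3, -0.96 ± 0.29, adjusted p = 0.0467), where 19.1% of all genes passed. The thioredoxins Txn1 and Txn2 and their reductases Txnrd1 and Txnrd2 passed in no tissue.

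Fgf21 (gene 56636, chromosome 7:45613890-45615490), a hormone released by liver in fasting and on sugar intake, was expressed in liver at levels that varied widely between libraries. Its liver values were 42.2, 21.7, 30.2 and 28.3 at 5 months and 49.6, 13.4, 21.5, 25.7 and 13.98 at 20 months. Adipose tissue gave 1.12, 0.259, 3.12 and 3.41 at 5 months and 2.004, 1.91, 0.892, 1.22 and 1.43 at 20 months, on 7 to 117 reads. In muscle it was at 0 in 2 of 4 libraries at 5 months and 3 of 5 at 20 months and had at most 4 reads in the others. Since a count of 0 allows up to 3 reads, or values of 0.196 to 0.242 in these muscle libraries, most of them could not be told from 0. The highest liver library was at 20 months, and the ages overlapped in liver (-0.41 ± 0.33, adjusted p = 0.390) and adipose tissue (-0.10 ± 0.36, adjusted p = 0.845). The liver difference passed without 20-month library X18L16, the highest one (-0.70, adjusted p = 0.0498). The liver mean was 15.5 times the adipose mean at 5 months and 16.7 times at 20 months.

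The receptors of FGF21, a list of 5 genes with the co-receptor Klb, changed in each tissue in 1 member, of 5 tested in liver and adipose tissue (beside 19.8% and 19.1% of all genes) and 3 in muscle (beside 19.3%). Fgfr1, the main receptor with Klb in fat, fell in muscle from 175 to 86.8 (-0.98 ± 0.16, adjusted p = 0.0041) and did not pass in adipose tissue. Fgfr3 rose in liver from 15.0 to 26.2 (0.72 ± 0.20, adjusted p = 0.0327) and fell in adipose tissue from 20.8 to 7.57 (-1.56 ± 0.41, adjusted p = 0.0331).

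Khk (gene 16548, chromosome 5:30921436-30931248), ketohexokinase, was a liver transcript that rose with age there. Its liver values were 120, 73.8, 135 and 143 at 5 months and 144, 238, 247, 214 and 167 at 20 months. All 20-month libraries lay above all 5-month libraries, the nearest pair being 143 and 144. The liver difference was 0.78 ± 0.22 (adjusted p = 0.0306). It was lost without 5-month library X5L4299 or X5L5001 or 20-month library X18L17, X18L18 or X18L19, with log2 differences of 0.58 to 0.81 and adjusted p of 0.0614 to 0.0788. Muscle gave 9.76, 8.95, 17.1 and 13.4 at 5 months and 17.02, 14.4, 18.2, 16.5 and 17.2 at 20 months, a difference that did not pass (0.44 ± 0.17, adjusted p = 0.0801) but passed without 5-month library X5S5238 (0.61, adjusted p = 0.0109). In adipose tissue the values were 6.29, 8.42, 5.47 and 19.6 at 5 months and 13.6, 8.10, 11.6, 8.91 and 8.09 at 20 months, with overlapping ages (0.15 ± 0.32, adjusted p = 0.740). The liver mean was 9.56 times the muscle mean at 5 months and 12.1 times at 20 months.

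Other genes of fructose handling, a list of 5, did not move as one. In liver 2 of 5 rose and 1 fell, beside 19.8% of all genes that passed there in either direction. Glyctk, glycerate kinase, fell from 729 to 377 (-0.93 ± 0.23, adjusted p = 0.0211). Sord, the sorbitol dehydrogenase that makes fructose, rose from 819 to 1440.4 (0.84 ± 0.21, adjusted p = 0.0220), and Akr1b3, the aldose reductase upstream of it, rose from 4.91 to 15.8 (1.46 ± 0.24, adjusted p = 0.0077). Akr1b3 also rose in adipose tissue (1.42 ± 0.31, adjusted p = 0.0227, 1 of 4 tested beside 19.1% of all genes) and in muscle (0.48 ± 0.13, adjusted p = 0.0301, 1 of 3 tested beside 19.3%). The ages did not overlap for Akr1b3 in any of the 3 tissues.

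Gpd1 (gene 14555, chromosome 15:99717587-99725014), which links glycolysis to glycerol 3-phosphate for triglyceride synthesis, overlapped between liver and muscle and was lower in adipose tissue at 5 months. Its liver values were 555, 293, 726 and 916 at 5 months and 721, 629, 636, 785 and 318 at 20 months. Muscle gave 450.3, 426, 573 and 591 at 5 months and 554, 491, 698, 497 and 572 at 20 months. Liver and muscle overlapped at both ages (log2 difference 0.18 ± 0.43 at 5 months, adjusted p = 0.719, and 0.08 ± 0.39 at 20 months, adjusted p = 0.857). Adipose tissue gave 81.2, 20.9, 114 and 154 at 5 months and 124, 411, 279, 241 and 284 at 20 months. At 20 months adipose tissue overlapped liver (up to 411 in adipose tissue and down to 318 in liver), and the calls there rested on the scaling. Liver against adipose tissue at 20 months was 1.24 (adjusted p = 0.00562) and 0.48 after rescaling without the 20 most abundant genes (adjusted p = 0.218), and adipose tissue against muscle was -1.15 (adjusted p = 0.0089) and -0.58 (adjusted p = 0.146). The adipose mean rose with age from 92.5 to 268, with 1 of the 20-month libraries inside the 5-month range (1.74 ± 0.54, adjusted p = 0.0497). The lowest adipose value was in library X5F5001, which also had the lowest adipocyte markers, and without it the difference was 1.14 (adjusted p = 0.0859). The call was also lost without 5-month library X5F4299 or 20-month library X18F37, X18F38, X18F39 or X18F40, at log2 differences of 1.56 to 1.78 and adjusted p of 0.0888 to 0.106. Of the 9 alternative analyses, 4 lost this call as well. Gpd1 did not pass in liver (0.04 ± 0.34, adjusted p = 0.941) or muscle (0.14 ± 0.13, adjusted p = 0.457). The age difference in liver lay below that in adipose tissue (-1.69 ± 0.58, adjusted p = 0.0473). That difference passed in 6 of the 27 fits without a library and was -1.10 without library X5F5001 (adjusted p = 0.120). The age difference in adipose tissue exceeded that in muscle by 1.59 ± 0.58, which did not pass (adjusted p = 0.0639) but did with the 5-month animal as a block (adjusted p = 0.0457). The other genes of the glycerol 3-phosphate list showed 1 fall, of Gpd1l in liver (-0.47 ± 0.14, adjusted p = 0.0354), among 3 tested there (beside 19.8% of all genes), and none passed among 4 tested in adipose tissue (19.1%) and 3 in muscle (19.3%).

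Summed markers of cell types had ranges that were apart between the ages for some lists and overlapped for others. No test was run on them. Within adipose tissue the summed level of 5 macrophage markers was 611 to 1345 at 5 months and 808 to 4680 at 20 months, and that of 4 B cell markers 2.96 to 15.1 and 10.98 to 150.04, with no marker of either list at 0. The 6 adipocyte markers summed to 6264 to 13994 and to 9354 to 13805, and the 4 endothelial markers to 564 to 1269 and 358 to 666. In liver the 6 hepatocyte markers summed to 102468 to 162290 at 5 months and 42888 to 96590 at 20 months. In muscle the 4 fibroblast markers summed to 855 to 1210 at 5 months and 452 to 787 at 20 months, without overlap, the 5 macrophage markers to 114 to 186 and 64.9 to 124, and the 6 muscle fibre markers to 141947 to 164837 and 128758 to 156261. The part of such differences in the results for ChREBP, Khk and Gpd1, and for MondoA, Txnip and the listed genes in muscle, was not tested. In such bulk tissue, fewer cells of a type and less RNA per cell cannot be told apart.

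Counted together, the members passed the age test at shares of 2 in 8 or 2 in 7, near those of all genes. In liver 2 of 8 passed, both rising (Mlxipl and Khk), beside 19.8% of all genes tested. In adipose tissue 2 of 8 passed, 1 rising (Gpd1) and 1 falling (Mlxipl), beside 19.1%. In muscle 2 of the 7 tested passed, both falling (Txnip and Mlxip), beside 19.3%. The ages did not overlap for 2 members in liver (beside 19.1% of genes), 1 in adipose tissue (beside 17.4%) and 1 in muscle (beside 17.3%). Differences between tissues in the age change passed for 2 members between liver and adipose tissue (15.6% of genes), none between liver and muscle (17.5%) and 1 between adipose tissue and muscle (14.7%). For the none between liver and muscle, limma gave no member an unadjusted p under 0.05, and edgeR and DESeq2 called none.

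Between tissues most of the 15572 genes tested differed, and so did most members in 5 of the 6 comparisons. The shares in brackets are of those genes. Liver differed from adipose tissue in all 8 members at 5 months (76.4% of genes) and at 20 months (74.5%). It differed from muscle in 7 members at 5 months (72.9%) and at 20 months (77.2%), Gpd1 being the exception at both ages. Adipose tissue and muscle differed in 3 members at 5 months (72.8%), namely Mlxip, Gpd1 and Fgf21, a count that was 7 after rescaling without the 20 most abundant genes, and in 6 at 20 months (76%), Mlx and Arrdc4 being the exceptions. Fgf21 passed the filter on low values through liver and adipose tissue alone, so its calls against muscle, counted here, were fixed by that filter. These levels depend on the scaling, since leaving the 20 most abundant genes out of it moved the median difference over all genes between liver and adipose tissue by -0.79 at 5 months (from -0.07 to -0.86) and by -0.61 at 20 months (from -0.06 to -0.67), and that between adipose tissue and muscle by 0.58 (from 0.18 to 0.76) and 0.45 (from 0.17 to 0.62). Under that scaling the 5-month differences of Mlxipl and Arrdc4 between liver and adipose tissue turned to -0.09 and -0.11, and the 20-month difference of Txnip between adipose tissue and muscle turned from -0.43 to 0.15.

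The other genes known to answer to glucose through these factors gave a mixed picture. Of 8 carbohydrate genes, 7 were tested in liver, where 3 rose and 1 fell (median 0.28), beside 19.8% of all genes. The glucose transporter Slc2a2 rose from 15.6 to 46.8 (1.74 ± 0.42, adjusted p = 0.0207), the liver pyruvate kinase Pklr, a classical ChREBP target, from 17.4 to 28.9 (0.68 ± 0.18, adjusted p = 0.0252), and the glucokinase regulator Gckr from 67.3 to 101 (0.55 ± 0.16, adjusted p = 0.0362). The glucose 6-phosphate transporter Slc37a4 fell from 175 to 72.7 (-1.19 ± 0.23, adjusted p = 0.0105). In adipose tissue 1 of 5 rose (beside 19.1%), the insulin-responsive transporter Slc2a4 (0.98 ± 0.28, adjusted p = 0.0420), and in muscle none of 4 passed (beside 19.3%).

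Of 14 lipogenic and lipid-export genes, 1 rose and 3 fell in liver among 13 tested, 2 rose and 2 fell in adipose tissue among 12, and 1 rose and 1 fell in muscle among 12. Of all genes 19.8%, 19.1% and 19.3% passed in these tissues. The list medians were -0.12, -0.17 and -0.09. In liver the largest rise was of Angptl8, an insulin-induced inhibitor of lipoprotein lipase (1.36 ± 0.30, adjusted p = 0.0154), and the largest fall of Acacb, the acetyl-CoA carboxylase of the mitochondrial surface (from 132 to 54.0, -1.51 ± 0.42, adjusted p = 0.0315). Acacb had the largest fall in adipose tissue as well (from 296 to 100.5, -1.68 ± 0.35, adjusted p = 0.0201), where Thrsp, a nuclear protein tied to lipogenesis, rose most (1.33 ± 0.39, adjusted p = 0.0427). In muscle Gpam, the mitochondrial glycerol 3-phosphate acyltransferase, rose from 278 to 589 (1.11 ± 0.20, adjusted p = 0.0057), and Mid1ip1, the relative of Thrsp, fell from 31.9 to 20.9 (-0.60 ± 0.12, adjusted p = 0.0073).

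Of the other dimer partners, Mnt and Mxd1 fell with age in muscle, as did Max. Mnt went from 38.6 to 21.95 (-0.78 ± 0.13, adjusted p = 0.0044), Max from 36.4 to 26.3 (-0.44 ± 0.12, adjusted p = 0.0286) and Mxd1 from 12.7 to 8.19 (-0.59 ± 0.18, adjusted p = 0.0422). The remaining gene of that list, Mxd4, did not pass, and none of the 4 passed in liver or adipose tissue, where 19.8% and 19.1% of all genes passed (19.3% in muscle). Among 5 glucose-responsive regulators (4 tested in muscle), none passed in liver, Rgs16 fell in adipose tissue (-1.08 ± 0.23, adjusted p = 0.0214), and in muscle Bhlhe41 rose (0.997 ± 0.27, adjusted p = 0.0270) while Klf11 fell (-0.55 ± 0.12, adjusted p = 0.0141).

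**Figure D5:**
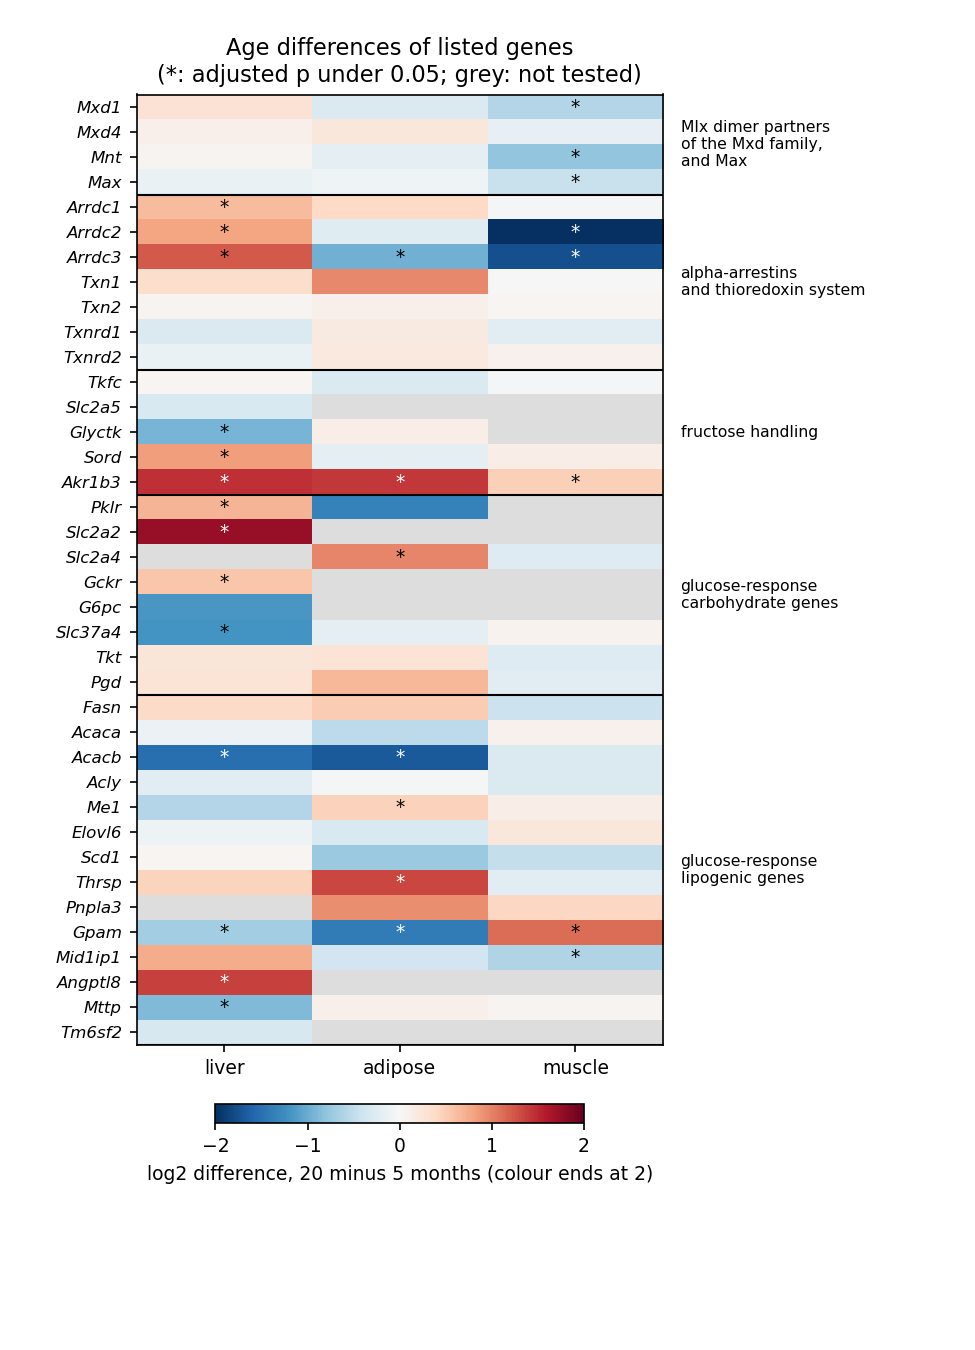
Age difference (log2, 20 minus 5 months, colour) of 5 gene lists in each tissue, starred where the adjusted p is under 0.05 and grey where not tested. Muscle shows the falls of Mnt, Max, Mxd1, Arrdc2 and Arrdc3, and Akr1b3 rises in every tissue.

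Some genes of the feeding state and of the clock passed the age test, beside 19.8% of all genes in liver, 19.1% in adipose tissue and 19.3% in muscle. Of 8 fasting genes, 2 fell in liver (Pck1, -0.96 ± 0.31, adjusted p = 0.0497, and Cpt1a, -0.43 ± 0.14, adjusted p = 0.0495). None of 8 passed in adipose tissue, and 3 of 7 fell in muscle (Pck1, -1.30 ± 0.31, Angptl4, -0.72 ± 0.20, and Pdk4, -0.57 ± 0.15). The medians of the fasting list were -0.91 in liver, 0.07 in adipose tissue and -0.76 in muscle. Over all genes tested the medians were 0.00, 0.01 and 0.02. In liver and muscle every fasting gene tested had a negative log2 difference, and the list as a whole was not tested. A further 4 genes (3 tested in adipose tissue) were taken for their response to feeding, which need not be a rise. Among them the lipogenic regulator Srebf1 rose in liver from 30.5 to 75.8 (1.26 ± 0.19, adjusted p = 0.0074). It had a smaller rise in adipose tissue (0.68 ± 0.17, adjusted p = 0.0285). Irs2 fell in liver (-1.52 ± 0.44), and Egr1 rose in liver (0.94 ± 0.26) and fell in adipose tissue (-0.83 ± 0.24) and muscle (-2.85 ± 0.82). Of 6 clock genes, Dbp (2.81 ± 0.79) and Nr1d1 (1.85 ± 0.34) rose in liver, and Arntl and Per1 fell in adipose tissue (-0.76 ± 0.21 and -1.67 ± 0.41) and muscle (-1.10 ± 0.23 and -1.52 ± 0.35). Of all the calls for listed genes, 16 were kept in every fit that left out a library: Akr1b3, Angptl8, Slc37a4, Srebf1, Nr1d1 and Arrdc3 in liver, and Arrdc2, Arrdc3, Mnt, Fgfr1, Gpam, Mid1ip1, Klf11, Pck1, Arntl and Per1 in muscle. The adipose calls for listed genes were each lost in at least 1 such fit. Time of day and time since feeding are not in the labels, and the part of either in the member results was not tested.

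Libraries that were extreme for one member were often extreme for others. At 5 months the libraries numbered like X5L5001 had the highest Mlxip in liver (27.3) and adipose tissue (147), the highest Txnip in those tissues (308 and 1991), and the lowest Gpd1 in all 3 tissues (293, 20.9 and 426). At 20 months liver library X18L74 had the highest Mlxip (22.3) and Mlxipl (210) and the lowest Txnip (95.5) and Gpd1 (318) of its group. After each tissue's mean was subtracted, Mlxip followed Txnip with r = 0.57 and ran against Gpd1 with r = -0.75 over the 27 libraries, a description only, since age and library are shared by these points. Within a tissue and age, 15 relations between 5 pairs of members were tested by exact permutation within ages, over every arrangement. None had an adjusted p under 0.05 and the smallest was 0.288. The strongest of the MondoA and Txnip pair was in muscle (Pearson r = 0.72, exact permutation p = 0.0531, Spearman rho = 0.77, exact permutation p = 0.0319, r = 0.51 without the 2 libraries farthest from the median of Mlxip). The Txnip and Arrdc4 relation was -0.24 in liver, 0.25 in adipose tissue and -0.33 in muscle (exact permutation p of 0.588, 0.618 and 0.310).

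The genes most alike to each member over the 27 libraries, after each tissue's mean was subtracted and among genes with a mean value of at least 5, were different for each. They were Atg3 (r = 0.79) and Ufd1l (0.77) for Mlx, Eps15l1 (0.88) and Gm33272 (0.87) for Mlxip, and Acvr2b (0.81) and Vegfa (0.80) for Mlxipl. For the arrestins they were Gcn1l1 (0.90) and Srrm1 (0.89) for Txnip, and Rapgef4 (0.67) and Npnt (0.65) for Arrdc4. The remaining targets were nearest to Kif1c (0.79) and 4931408D14Rik (0.76) for Fgf21, Bphl (0.91) and Akr7a5 (0.89) for Khk, and Hadh (0.93) and Emc9 (0.92) for Gpd1. These coefficients are the highest of 11218 and carry no test.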

How the data were processed

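The authors processed reads of poly-A selected, directional libraries in CLC Genomics Workbench, and per the labels the builds were GRCm38.p6 and mm10. Whether strand was used in counting is not given in the sources used here. The deposited values are headed CPM but each library carries a further factor, so they were treated as a signal (scaled counts). From them 100% of values came out as whole reads (tolerance 0.02 reads), on which edgeR 4.0.16 and DESeq2 1.42.0 were run as alternatives. For edgeR, the calls over all genes tested are given with the effects of the processing.

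The design had assumed CPM, and its test was kept: limma 3.58.1 in R 4.3.3 with a variance trend on log2(value + 1), a filter keeping genes that reached 1 in 4 libraries or more, Benjamini-Hochberg adjustment over all of them and a threshold of 0.05. Age was fitted per tissue on 9 libraries, and tissue contrasts and differences in age change on all 27. A test on simulated data recovered 194 of 196 changed genes with 6 false calls in the liver design. It recovered 197 of 199 with 9 in the adipose design and 189 of 194 with 14 in the muscle design. For changes of 2-fold the counts were 87 of 89 in the liver design, 110 of 112 in the adipose design and 87 of 92 in the muscle design. Recovery of changes below 2-fold, or at the spread of each member between libraries, was not tested. By the study's list of mice, the 5-month libraries of one number came from the same animal in all 3 tissues. Whether 20-month libraries of different tissues shared animals is not settled by that list. A fit with the animal as a block treated each 20-month library as a separate animal. Same-numbered 5-month libraries deviated together weakly (mean r = 0.16 over 12 pairs, 7 of them over 0.1, against -0.05 for other pairs), and the fit with the animal as a block is given where it changed a call. No library pair within a group was identical. Exon lengths came from GENCODE (GRCm38), which may differ from the annotation of the authors. Coordinates, gene numbers and promoter sequences came from RefSeq on GRCm38.p6. Limits for a count of 0 cover counting error only.

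Named genes were the 8 members, the called genes of each list with a mean value of at least 1 (for the list of 14 the largest rise and fall per tissue), and the 2 genes most alike to each member. The members and the gene lists were chosen with earlier results of these data known. A gene of the fructose list is not reported here.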

Additional observations from a re-analysis of the deposited data

Results flagged for a closer look

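Fgf21 in 20-month muscle was flagged because library 58 lay far from the others of its group: the gap to the next library was 0.77 of the range. The value was 0.289, on 4 reads, against 0 to 0.0665 in the other libraries. It was the only one of 48 gene and group combinations flagged in this way, and chance flags about 1 in 20.

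In 3 cases age changes differed between tissues by the test of the difference. The change of Mlxipl in liver exceeded that in adipose tissue by 1.55 on the log2 scale (adjusted p = 0.000526, limma), and that in adipose tissue lay below that in muscle at -1.17 (adjusted p = 0.00552). The change of Gpd1 in liver lay below that in adipose tissue at -1.69 (adjusted p = 0.0473). The Mlxipl differences were kept in all 9 alternatives, and the Gpd1 difference in 4 of 9.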

How the results depend on the processing

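The number of members called for age (2 in each tissue) depended on the processing in adipose tissue and muscle. In adipose tissue it was 1 with a pseudocount of 0.1, with no variance trend and with edgeR, 0 with no filter on low values, and 4 with DESeq2 and with all 27 libraries in 1 fit. In muscle it was 1 with no filter and with no variance trend, and 0 in the fit of all 27. In liver it was 1 with no filter. Leaving out 1 library in turn gave 1 to 3 in liver and in muscle and 0 to 3 in adipose tissue. Over all genes, the adipose count of 2674 was 1525 with no filter, 4348 with DESeq2 and 5270 in the fit of all 27, and the muscle count of 2451 was 1507 with no filter. The count over all genes by edgeR on whole reads was 2578 in liver, 2692 in adipose tissue and 2453 in muscle. Between liver and adipose tissue, members whose age change differed (2) numbered 1 with edgeR, no variance trend, no filter, a pseudocount of 0.1 or rescaling without the 20 most abundant genes, and 1 to 3 with a library left out. Between adipose tissue and muscle they (1) numbered 2 with the shared animal as a replicate block and 1 to 2 with a library left out. Members differing between adipose tissue and muscle (3 at 5 months, 6 at 20 months) numbered 7 at 5 months after that rescaling, and 3 to 4 and 5 to 6 with a library left out.

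Directions turned in these cases, and their cause was not tested. Rescaling without the 20 most abundant genes gave 0.018 for Arrdc4 by age in liver, -0.094 for Mlxipl and -0.11 for Arrdc4 between liver and adipose tissue at 5 months, and 0.15 for Txnip between adipose tissue and muscle at 20 months. The age difference of Gpd1 in liver was -0.021 with edgeR, -0.011 with DESeq2 and -0.28 to 0.27 with a library left out. That of Mlxip in liver was -0.36 to 0.067 and that of Khk in adipose tissue -0.048 to 0.51 with a library left out. That of Fgf21 in adipose tissue was 0.042 with a pseudocount of 0.1 and -0.46 to 0.14 with a library left out. The relation of Mlxipl and Khk in liver was 0.033 by ranks, and without the 2 libraries farthest from the median that of Txnip and Arrdc4 in adipose tissue was -0.37 and that of Mlx and Txnip 0.37. Of the 53 calls for listed genes, 27 were kept in every alternative and 16 in every fit without a library, and none changed sign.

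With the animal of the 5-month libraries as a replicate block, Gpd1 passed for the difference in age change between adipose tissue and muscle (1.59, adjusted p = 0.0457, against 0.0639 without the block), and no other call of a member between tissues or for a difference in age change was altered. Ages share no animal, so no paired age analysis was possible.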
